A study of Mus musculus with 4 samples.

Results

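The cells described here are labelled ovarian surface epithelial cells, the thin outer layer of the mouse ovary. They were picked out of whole-ovary single-cell RNA-seq by a rule on gene detection. The label is that of the rule, and some of the cells had other profiles, described below. Of 47782 cells that passed the cell filters in 4 libraries, 855 met the rule and are called members below. A member had at least 3 of 7 epithelial and mesothelial genes detected, namely Upk3b, Krt19, Krt7, Krt18, Lrrn4, Muc16 and Msln. Its UMIs (unique molecular identifiers, 1 per captured RNA molecule) of the granulosa genes Inhba and Amh together stayed under 0.1%, and fewer than 2 of Flt1, Cldn5, C1qa and Cyp17a1 were detected. Of the filtered cells, 915 had at least 3 of the 7 genes, the granulosa limit kept 879 of them and the last criterion kept 855. The members were thus selected on measured expression, and every comparison of them with other cells of the ovary is a description without a test.

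The ovaries came from littermate females of 8 weeks, taken in estrus as judged by vaginal smears. The Cyp19a1-Cre mice had a C57BL/6J background, and that of the crossed animals is not given in the sources used here. The 2 control libraries, Fosl2F/F, carried floxed Fosl2 on both alleles without Cre. The 2 libraries labelled Fosl2cKO carried the same floxed alleles and Cyp19a1-Cre, in which the promoter of the granulosa cell aromatase gene drives Cre, so that deletion was aimed at granulosa cells and not at the surface epithelium. The replicates per group given by the study match the libraries per group in number, but whether each library came from a single animal is not given in the sources used here, so p-values measure only the spread between the libraries.

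The surface epithelium is a single sheet of mesothelium-derived cells that covers the ovary, opens at each ovulation and closes again over the wound. It keeps both epithelial traits (keratins, junction proteins) and mesothelial traits (Upk3b, mesothelin), and it expresses the gonadal factors Wt1, Gata4 and Lhx9. Cells with the R-spondin receptor Lgr5 are known as progenitors in this layer. Fosl2 encodes a subunit of AP-1, a family of dimeric transcription factors of Fos and Jun proteins that responds quickly to growth factors, wounding and cell dissociation.

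The libraries Fosl2F/F 1, Fosl2F/F 2, Fosl2cKO 1 and Fosl2cKO 2 held 8780, 24320, 7175 and 7507 filtered cells. Their members numbered 110, 435, 194 and 116, with 1751364, 5101269, 4310931 and 2055714 UMIs in all and medians of 10124, 6576, 15318 and 11668 UMIs per cell. The library Fosl2F/F 2 stood apart by its cell number and its low depth, with a median over all its cells of 3970 UMIs against 11380 to 12885 in the other 3. Any pair of libraries shared 12 to 49 cell barcodes, and 1 barcode was shared by members, between Fosl2cKO 1 and Fosl2cKO 2. Fosl2 itself, located at chr5:32135801-32157842 on the plus strand of GRCm38, was not lower in both libraries labelled Fosl2cKO in granulosa cells, the cells that were targeted. Its level there was 176, 173, 191 and 104 in the order above, as normalised counts (CPM). The paper describes LoxP sites around the Fosl2 coding sequence. Which part of the transcript the 3′ reads cover was not tested, so these counts do not check the genotype. At the protein level, the paper reports an immunoblot in which Fosl2 was depleted in granulosa cells of Fosl2cKO mice. All levels below are CPM, the UMIs of a gene over all UMIs of the summed cells, scaled to a common total. The 4 values of a gene follow the same order of libraries, and a mean is given with its SD over the 4 libraries.

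The 7 genes of the rule were often detected together. All 7 belong to the rule and the cells were not thinned for this count, so it describes the members and is no check of the label. When each of the 7 genes was left out in turn and the cells were required to reach 3 with the other genes, Krt18 was detected in 96.3% of them, Krt19 in 88.5%, Upk3b in 88.1%, Msln in 80.9%, Muc16 in 78.1%, Krt7 in 73.0% and Lrrn4 in 34.7%. In all other cells the same genes were detected in 0.121% (Lrrn4) to 7.20% (Krt18). Nearly all of those cells had fewer than 3 of the 7 genes, so the rule itself kept this detection low and it is no check. Around the limit of the rule, levels changed steeply. Among cells that met the other criteria, 254 had 2 of the 7 genes and 114 had 3. Nrg1, which is outside the rule, was at 118 CPM in the former and 1150 in the latter. It was picked for its high ratio of members over all other cells in these data. A step at the limit was thus partly built in and is no check of the label. Cells with 3 genes had a median of 3044 UMIs and cells with all 7 genes a median of 23791.5 (234 cells), while cells with 1 and 2 genes had medians of 12427 and 8257.5. Of the 114 cells with 3 genes, 87 were from the shallow library Fosl2F/F 2, and 35.1% were marked by Scrublet as likely doublets (droplets with RNA of more than 1 cell).

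**Figure D1:**
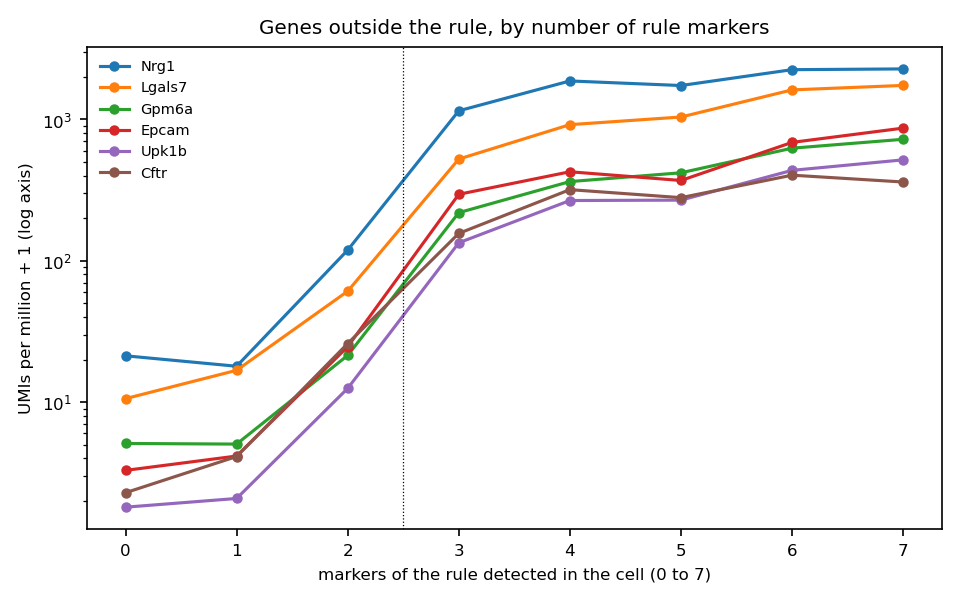
Levels of 6 genes outside the rule (CPM plus 1, log axis) in cells grouped by how many of the 7 rule genes were detected, all libraries together; the dotted line is the limit of the rule. Nrg1 was at 118 CPM with 2 rule genes and at 1150 with 3, and the other 5 genes also stepped up across the limit. All 6 were picked for a high ratio of members over all other cells, so the step was partly built in.

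Beyond the rule, the members were led by genes that were far lower in all other cells of the ovary. Leading genes were ranked by the lowest ratio to all other cells over the 4 libraries. Nrg1, which encodes the ErbB ligand neuregulin, was first at 1692, 2227, 2033 and 2468 CPM, against 15.2 to 32.1 in all other cells. All 4 libraries lay close together. Lgals7, a galectin of lining epithelia, stood at 2169, 1219, 1685 and 1386, against 6.33 to 16.8. Gpm6a, a membrane glycoprotein best known from neurons, was at 608 ± 47.7 (SD, n = 4). The transcription factor Sox6 was at 672 ± 59.1 and the semaphorin receptor Plxna4 at 1741 ± 133 (SD, n = 4 each).

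Further down these 20 genes, Upk1b, a uroplakin of the urothelial plaque, was at 442 ± 81.9, the epithelial adhesion molecule Epcam at 708 ± 294 and the chloride channel Cftr at 339 ± 35.9 (SD, n = 4 each). E-cadherin, encoded by Cdh1, was at 280, 495, 412 and 213 CPM, with 0.976 to 5.55 in all other cells. Hsd17b2, which oxidises estradiol to the weaker estrone, was at 287, 177, 242 and 392, against 0.373 to 1.54 elsewhere. Lhx9, a LIM homeobox factor needed for the formation of the gonad, was at 275 ± 60.5 (SD, n = 4). The others were Ildr2, Lrrc7, Lgals2, Ppp2r2b, Egfl6, Pcnx2, Slc35f1, Stk26 and Pkhd1l1, with means of 228 (Stk26) to 668 (Ildr2). Of the 20 leading genes, 10 span more than 100 kb, against 1911 of the 12290 tested genes with a known position, and their median length was 86.5 kb against 26.1 kb. Whether reads from introns were counted is not given in the sources used here, and counts of long genes would be most affected.

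The same genes were common in single members at a fixed depth. After each cell had been thinned to 2000 UMIs, Plxna4 was detected in 89.6% ± 2.54 of the members, Lgals7 in 87.1% ± 3.73, Nrg1 in 75.1% ± 7.27 and Epcam in 67.8% ± 11.9 (SD, n = 4 each). In thinned macrophages the same genes were detected in 12.4%, 1.70%, 5.31% and 0.492%. Of the members, 57 in all had under 2000 UMIs and were left out of this count (4, 50, 1 and 2 per library).

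**Figure D2:**
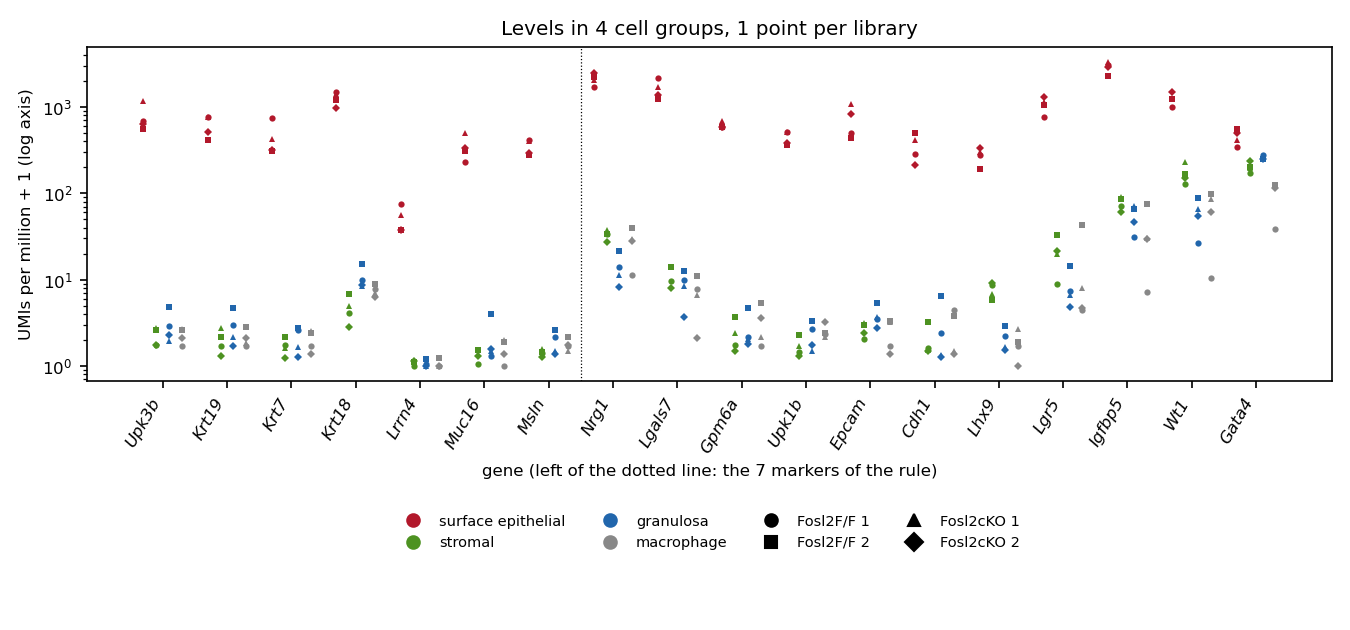
Levels (CPM plus 1, log axis) of the 7 rule genes and 11 further genes in surface epithelial, stromal, granulosa and macrophage cells, with 1 point per library. Every surface epithelial point lies above every point of the other 3 cell groups for each gene shown, by the narrowest margin for Gata4.

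The gene lists place these levels by function, and a gene is called highest in the members when it was above stromal, granulosa and macrophage cells in every library. Over all genes tested outside the rule, 2178 of 12281 were (17.7%). The surface and mesothelial list holds 4 genes of the rule. Of its other 16 genes, 15 were highest in the members, and these 16 summed to 8576 to 12324 CPM, against means of 1230 in stromal, 442 in granulosa and 762 in macrophage cells. Wt1, the Wilms tumour factor, was at 1240 ± 196 (SD, n = 4) against 168 in stromal cells. Igfbp5, which binds insulin-like growth factors, was at 2864 ± 430 (SD, n = 4) against 75.9 in stromal cells. The exception was Gas6, at 391 to 528 against a mean of 603 in stromal cells. Of 25 keratin and junction genes outside the rule, 18 were highest in the members. The simple epithelial keratin Krt8 was at 387 to 676, and tight junction genes followed (Cldn3 at 153 to 252, F11r at 388 to 625, Ocln at 107 to 127). Krt5, a keratin of basal cells in stratified epithelia, had 0 UMIs in 3 of the 4 libraries. N-cadherin (Cdh2) and connexin 43 (Gja1) were higher in granulosa cells, at means of 244 and 1748, than in the members, at 150 to 195 and 318 to 407.

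Among genes tied to progenitor states, Lgr5 was at 761, 1051, 1134 and 1308 CPM in the members, against 19.7 in stromal, 7.31 in granulosa and 14.0 in macrophage cells. It was detected in 73.2% ± 5.64 of thinned members (SD, n = 4) and in 1.10% of macrophages. Aldh1a2, which makes retinoic acid, was at 351 to 524 against 24.0 in stromal cells, whereas Aldh1a1 was at 248 to 296 in the members and at a mean of 276 in stromal cells. Of 14 progenitor genes, 6 were highest in the members, and Cd44 and Prom1 were not among them. Of 20 gonadal transcription factors 10 were highest, among them Wt1, Bnc1 (47.7 to 71.4, against at most 0.423 as a mean in the other 3 cell groups), Lhx9 and Irx3, while Lhx2, Tbx18 and Hoxa9 had 0 UMIs in the members of every library.

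Of 14 hormone receptors 3 were highest in the members (21.4%, near the 17.7% of all genes tested outside the rule). Among them were Esr1 (286 to 399) and the anti-Müllerian hormone receptor Amhr2 (193 to 342), while Esr2 and Fshr were higher in granulosa cells. Of 45 growth factor and receptor genes outside the rule, 11 were highest in the members (24.4%, beside the same 17.7%). They included Fgf9 at 78.2 to 122, the Wnt agonist Rspo1 at 45.9 to 115, Hbegf at 117 to 157 and Pdgfa at 143 to 192, whereas Fst, at 27.1 to 40.5, was far under its level in granulosa cells (437). Of 12 complement genes 8 were highest, with C3 at 175, 172, 420 and 198 and its regulator Cd55 at 144 to 231 CPM. The 12 genes summed to 1352 to 2269 CPM in the members, against means of 1894 in stromal, 486 in granulosa and 371 in macrophage cells. Among 29 matrix and protease genes only 3 were highest, and Col1a1, Col3a1 and Sparc were at their top in stromal cells. Of 17 steroid and retinoid genes outside the rule 3 were highest (17.6%, near the share of all genes tested). Among them was Star, which brings cholesterol into mitochondria, at 312 to 482 against 120 in stromal cells. No separate group of theca or luteal cells was compared. Of 27 inflammation genes 3 were highest, of 10 Hippo targets 4, and of 29 cell cycle genes none (0).

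AP-1 and immediate early genes were high in the members. The 20 genes of that list summed to 20159.5 to 24864 CPM in the members, against means of 14468 in stromal, 8629 in granulosa and 9427 in macrophage cells, and 8 of the 20 were highest in the members in every library. Fos was at 4168 to 5122 and Btg2 at 1961 to 2738. Atf3 was at 2323, 2152, 2176 and 2048 against 234 in stromal cells, and Nr4a1 at 649 to 912 against 320. Fosl2 was at 190, 316, 288 and 177 in the members and at a mean of 242 in stromal cells, and Junb at 1404 to 1798 against 1763.

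Markers of other ovarian cell types were mostly low in the members, with a few exceptions, and the lists include the genes that the rule kept low. The 14 granulosa markers summed to 1726 to 2162 CPM against 17087 in granulosa cells. Macrophages were at a mean of 1782 and stromal cells at 1252, so the members were near the former and above the latter. Within this list Amhr2 and Kctd14 (278 to 535) were higher in the members than in granulosa cells. The 12 stromal markers summed to 1078 to 1346 against 7428 in stromal cells, above the means of 430 in granulosa and 536 in macrophage cells. The 10 theca and luteal markers summed to 1246 to 2609 against 4973 in all other cells. The 10 macrophage markers summed to 297 to 780 against 20681, mostly from the MHC class II chain Cd74 (221 to 686), while C1qb was at 1.14 to 38.9. Among 10 endothelial markers the VEGF receptor Kdr was at 83.4, 97.4, 140 and 120 against 21 as a mean of all other cells, with Vwf at 0.232 or less. Ooep, known from the oocyte's subcortical complex, was at 188, 81.9, 152 and 129 against 17.1 in all other cells, with the oocyte genes Zp1, Zp2 and Nlrp5 at 4.12 or less and Gdf9 at 7.78 to 15.7. Lymphocyte markers summed to 6.81 to 88.5, pericyte and smooth muscle markers to 109 to 689 with the highest value in Fosl2cKO 2, and red cell markers to 1.76 to 51.6 with the highest also there.

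The members fell into 8 clusters, which are numbered here and were defined on the same genes that describe them. Clusters 1, 2 and 3 held 593 of the 855 members (271, 130 and 192) and shared the profile above, with sums of the rule genes of 4145, 5586 and 3952 CPM. Cluster 1 was shallow, with a median of 3780 UMIs per cell against 17790 and 20354.5 in clusters 2 and 3. Cluster 2 was led by short genes, among them Lgals1 at 2522 against 1064 in the other members, the protease inhibitor Timp1 at 257 against 98.3, and Crip1 at 1368 against 619. Cluster 3 was led by very long genes, the glutamate receptor gene Grm8 at 319 against 100, Lrrc7 at 495 against 211, Nrg1 at 3367 against 1504, and the guidance ligand Slit2 at 616 against 283. The median length of the 10 leading genes was 5.22 kb in cluster 2 and 469 kb in cluster 3, and genes over 100 kb gave 19.7% and 25.8% of the UMIs. The genes that varied most from member to member in every library were, in order, Nrg1, Malat1, Igfbp5, Akr1cl, Kcnd2 and Tmsb4x, then Lgr5, Slit2, Magi1, Fos, Mt1, Adamts19, Tenm4, C3 and Atf3. Among them Malat1, Akr1cl and Tenm4 were not enriched in the members, and Akr1cl was at 491 to 1031 against 2611 to 3085 in all other cells.

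Cluster 6, of 39 cells, had another profile. Krt7 was at 1309 CPM against 436 in clusters 1 to 3 and Cdh1 at 884 against 454, whereas Nrg1 was at 109 against 2788, Igfbp5 at 690 against 3480 and Lhx9 at 144 against 339. This profile of high Krt7 and low Nrg1 was seen in its cells of all 4 libraries, with Krt7 at 2484, 1710, 723 and 1331 and Nrg1 at 0, 308, 73.9 and 8.47. The genes that led the cluster as a whole were narrower. Ovgp1, the oviductal glycoprotein, had 1085 UMIs in 4 cells of Fosl2cKO 1 and 0 in the cluster's cells of the other 3 libraries. Wfdc2 (399 UMIs in 6 cells), Pax8 (52 in 4) and S100g (309 in 4) were likewise carried by Fosl2cKO 1, and had 0 UMIs in the cluster in the other libraries. Ciliated cell genes were absent or nearly so, since Tmem212, Ccdc153 and Cdhr3 had 0 UMIs in all members and Foxj1 was at 0.696 to 1.18 CPM.

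The other 4 clusters, 223 cells or 26.1% of the members, held many cells marked as likely doublets. The marked share was 73.5% in cluster 4, 40% in cluster 5, 89.9% in cluster 7 and 84.0% in cluster 8, against 4.62% to 12.8% in clusters 1, 2, 3 and 6. Clusters 4 and 7 had low rule genes, with sums of 1069 and 1526 CPM, beside genes of another cell type. In cluster 4 these were the luteal and theca genes Cyp11a1 (4378), Hsd3b1 (3026) and Lhcgr (914), and in cluster 7 Col1a2 (460) and the inhibin gene Inha (1269). Acta2 was at 486 in cluster 7, but over the 4 clusters together it was at 1708 in Fosl2cKO 2 and at 55.8 to 171 in the other libraries. Clusters 5 and 8 had sums of the rule genes near those of clusters 1 to 3, at 4451 and 3987, with much Upk3b and little Krt18 in cluster 8. The 12 stromal markers summed to 6829 in cluster 8, against 661 to 987 in clusters 1 to 3. Cluster 8 (25 cells) had the highest Upk3b of all clusters (1562), high Gpm6a (1774), C3 (2450), Slpi (2010) and Dcn (3286), and no Cdh1 (0), with Epcam at 89.7 and Krt18 at 285. Lrrn4 was highest in clusters 5 and 8, at 176 and 188, against 53.2 in clusters 1 to 3. Cluster 5 (35 cells) also carried the neural adhesion gene Ncam1 (206) and the retinol receptor Stra6 (161), and its 79 UMIs of Ccl5 and 49 of Gzma, transcripts of T cells and natural killer cells, were each in 1 cell of Fosl2F/F 1.

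**Figure D3:**
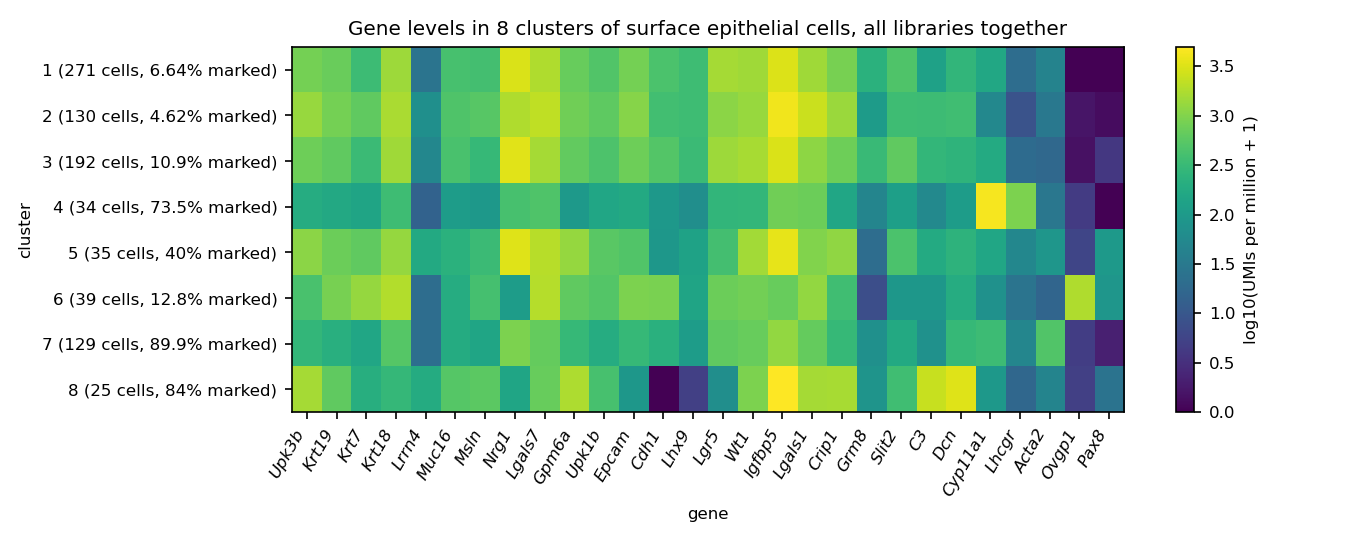
Levels of 28 genes, as log10 of CPM plus 1, in the 8 clusters of surface epithelial cells with the 4 libraries together; row labels give the cells and the percent marked as doublets. Clusters 1 to 3 share 1 profile, cluster 6 is low in Nrg1 and holds Ovgp1, cluster 8 lacks Cdh1, and clusters 4 and 7 are lower in all 7 rule genes than clusters 1 to 3.

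The first comparison between conditions was the share of the members among all cells. It was 1.25% (95% Wilson interval 1.04 to 1.51), 1.79% (1.63 to 1.96), 2.70% (2.35 to 3.11) and 1.55% (1.29 to 1.85). The intervals cover counting error only, and a share also moves with the number of other cells captured. The means were 1.52% ± 0.379 in Fosl2F/F and 2.12% ± 0.819 in the libraries labelled Fosl2cKO (SD, n = 2 each). The groups overlapped, since Fosl2cKO 2 lay below Fosl2F/F 2. The log2 ratio of the means was 0.48 (exact two-sided permutation test, p = 0.667), in a design of 2 against 2 libraries whose smallest possible p is 0.33. Marked doublets made up 21.8%, 37.2%, 11.9% and 14.7% of the members, and without them the share no longer overlapped between the groups (log2 ratio 0.68, exact permutation p = 0.33), by a margin of 1.394% in Fosl2F/F 2 to 1.403% in Fosl2cKO 2. The marked share is set to rise with the number of cells in a library, and 19.5% of all cells were marked in Fosl2F/F 2 against 5.74% to 7.03% in the other libraries. Without Fosl2cKO 1 the log2 ratio was 0.02.

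**Figure D4:**
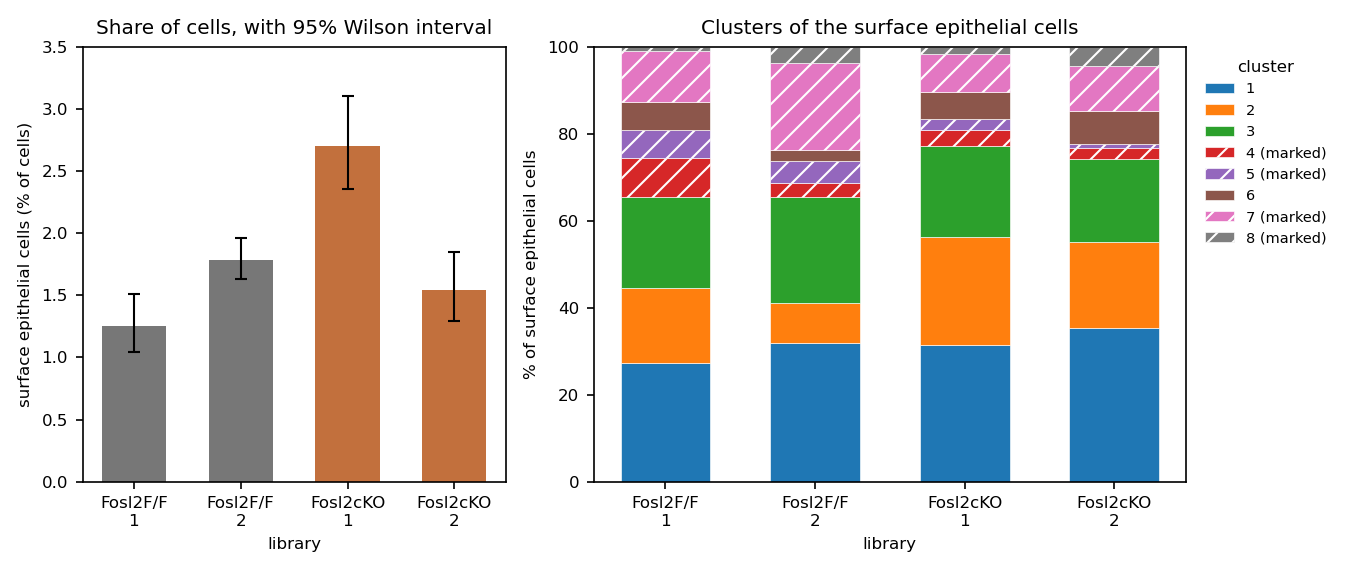
Left, surface epithelial cells as a percent of all cells per library with 95% Wilson intervals; right, the 8 clusters as a percent of the surface epithelial cells of each library, with clusters rich in marked doublets hatched. The share was highest in Fosl2cKO 1 at 2.70%, and the hatched clusters made up 16.5% to 32.0% of the members.

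Cluster 1 held 27.3%, 32.0%, 31.4% and 35.3% of the members and cluster 3 held 20.9%, 24.4%, 21.1% and 19.0%. Cluster 2 ranged from 9.20% in Fosl2F/F 2 to 24.7% in Fosl2cKO 1, and cluster 7 from 8.76% in Fosl2cKO 1 to 20% in Fosl2F/F 2. Clusters rich in marked doublets held 28.2% and 32.0% of the members in Fosl2F/F and 16.5% and 18.1% in the libraries labelled Fosl2cKO. No test was run on these shares, because the clusters were built on the same cells.

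The share of cycling members was measured at a fixed depth. A cell was counted as cycling when at least 2 of 10 proliferation genes such as Mki67 and Top2a were detected after thinning. These were 2 of 106, 17 of 385, 15 of 193 and 2 of 114 thinned members, or 1.89%, 4.42%, 7.77% and 1.75%. Without thinning the shares were 25.5%, 20.2%, 27.3% and 16.4%, so the level depends on depth and only thinned cells were compared with other cell groups. Thinned stromal cells gave 7.19% to 15.6% and granulosa cells 26.4% to 38.7%. Macrophages gave 3.55%, 10.5%, 6.23% and 8.72%. The members were under both macrophages and stromal cells in 3 libraries and above both in Fosl2cKO 1. The groups overlapped, with a log2 ratio of 0.60 (exact two-sided permutation test, p = 1), and the ratio was -0.84 without Fosl2cKO 1 and -0.064 in cells that had not been thinned. Mki67 was at 62.3 CPM in cluster 7 and at 13.6 in clusters 1 to 3.

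Gene expression was compared between conditions on UMIs summed over the members of each library. Of 12292 genes tested, 4 passed at an adjusted p under 0.1 with a log2 fold change over 0.25 in size (0.0325% of the genes tested), all 4 higher in the libraries labelled Fosl2cKO. At an unadjusted p under 0.05 there were 367 genes (2.99%). The median log2 fold change of all tested genes was -0.01. Values did not overlap between the groups for 1747 genes that were higher (14.2% of those tested) and 1194 that were lower (9.71%) in the libraries labelled Fosl2cKO.

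The 4 genes were Plb1, Scand1, Tmem160 and Cebpd. Plb1, which encodes a membrane phospholipase, was at 1.14, 0.392, 41.8 and 182 CPM (log2 fold change 7.40, SE 0.85, edgeR adjusted p = 0.0319). Plb1 lies at chr5:32232708-32366520, 74.9 kb downstream of Fosl2 on the same strand, and no other gene counted in these data lies wholly between them. It was also higher in the libraries labelled Fosl2cKO in granulosa cells (0.0626, 0.0538, 907 and 327 CPM) and in stromal cells (log2 fold change 8.13, edgeR adjusted p = 4.79e-06), and the difference from the effect in stromal cells was -0.77 (limma adjusted p = 0.945). Much of its signal in the members came from cluster 4, where it was at 731 CPM, and in clusters 1 to 3 it had 2, 0, 27 and 15 UMIs in the 4 libraries. Of its 558 UMIs, 468 were in 7 cells.

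Scand1, a small SCAN domain protein gene, was at 14.8, 27.2, 111 and 113 CPM (log2 fold change 2.34, SE 0.32, edgeR adjusted p = 0.0929). Cebpd, a transcription factor gene of the acute phase response, was at 22.3, 21, 74.7 and 123 (log2 fold change 2.15, SE 0.32, edgeR adjusted p = 0.0929). Tmem160, a gene of a small membrane protein, was at 4.57, 6.47, 26.2 and 43.8 (log2 fold change 2.54, SE 0.38, edgeR adjusted p = 0.0929). For these 3 genes the values were alike in clusters 1 to 3, where Scand1 was at 13.9, 24.8, 113 and 117. The log2 fold changes in stromal cells were 2.21, 2.22 and 2.08 and those in granulosa cells 2.17, 1.005 and 2.41 for Scand1, Cebpd and Tmem160. None of them passed in granulosa cells (edgeR adjusted p = 0.288, 0.703 and 0.329). In stromal cells Tmem160 did not pass (edgeR adjusted p = 0.147). Scand1, Tmem160 and Cebpd are short, at 0.858, 2.72 and 3.75 kb. When each library's trend with gene length was removed, 0 genes passed (408 at an unadjusted p under 0.05), while the log2 fold changes of Scand1, Tmem160, Cebpd and Plb1 were 2.27, 2.5, 2.16 and 7.51.

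The calls depended on the cells and libraries used. Without Fosl2F/F 1 or without Fosl2F/F 2 edgeR called 0 genes (434 and 590 at an unadjusted p under 0.05), without Fosl2cKO 1 it called 75 and without Fosl2cKO 2 it called 7. With marked doublets removed it called 0 (381 at an unadjusted p under 0.05), with log2 fold changes of 2.38 for Scand1, 2.45 for Tmem160, 2.33 for Cebpd and 5.90 for Plb1. Without the clusters rich in marked doublets it called Scand1 alone, with log2 fold changes of 2.48 for Scand1, 2.29 for Tmem160, 2.29 for Cebpd and 4.16 for Plb1. DESeq2 called 23.

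**Figure D5:**
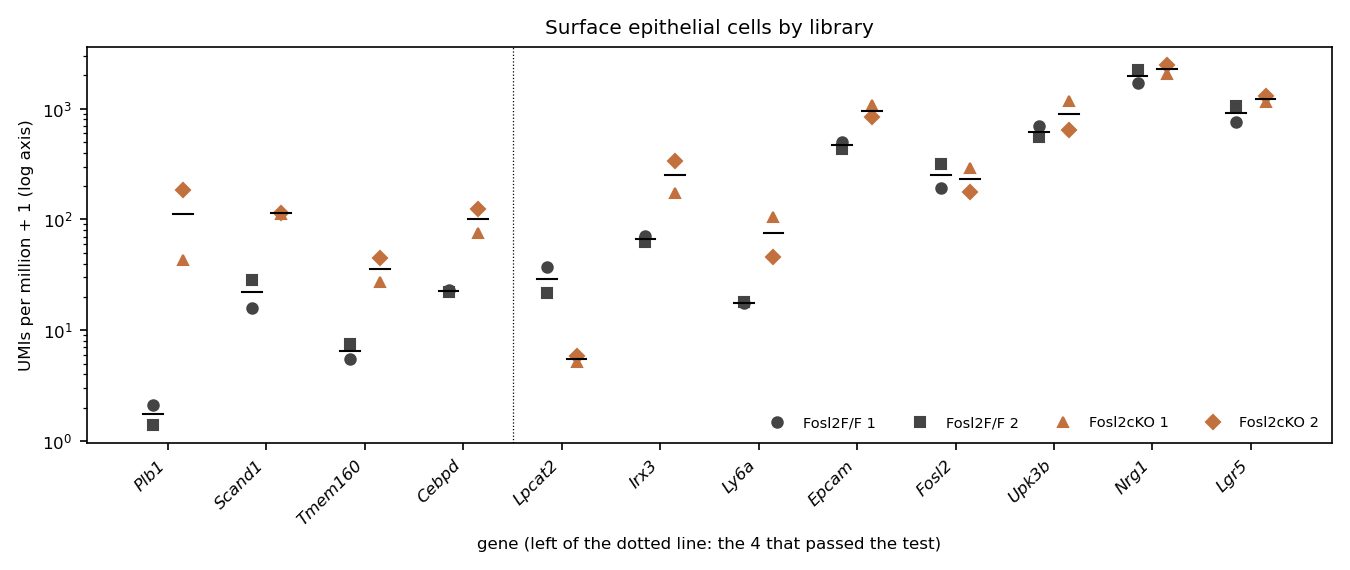
Levels in the surface epithelial cells (CPM plus 1, log axis) of 12 genes, with 1 point per library and a bar at the mean of each condition. The 4 genes left of the dotted line passed the edgeR test, with all values of the libraries labelled Fosl2cKO above those of Fosl2F/F. Fosl2, Upk3b and Nrg1 overlap between conditions. Lgr5, which did not pass, was higher without overlap, as were 14.2% of all genes tested.

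No gene of the 23 lists passed the test in either direction (0 called in each list, beside the 0.0325% above). The 20 surface and mesothelial genes had a median log2 fold change of 0.13 over the 19 tested, the keratins and junction genes -0.08, the gonadal transcription factors 0.25, the AP-1 and immediate early genes -0.09, the complement genes 0.29 and the cell cycle genes 0.53, beside -0.01 for all genes. Marker lists of other cell types had medians of -0.72 for theca and luteal, -0.46 for granulosa and 0.87 for macrophage. Those for stroma and for pericyte and smooth muscle were 0.22 and 0.23. The medians were -0.41 for the 5 endothelial, -0.74 for the 4 lymphocyte and -0.50 for the 3 oocyte markers tested. The summed lymphocyte markers overlapped between conditions. The median was 1.04 over the 3 genes tested of the oviduct list. Among single genes of these lists that did not pass, the luteal gene Akr1c18 differed by -4.56 (edgeR adjusted p = 0.247), Cyp17a1 by -1.73 (edgeR adjusted p = 0.313) and Inhba by -1.36 (edgeR adjusted p = 0.446), the last 2 being genes that the rule limited. In stromal cells Akr1c18 differed by -5.17 (edgeR adjusted p = 0.0192). Clusters 1 to 3 of the members held 2, 33, 0 and 0 of its UMIs in the 4 libraries. The part of other cell types in the comparison of conditions was not tested. Fosl2 differed by -0.14 (SE 0.34, edgeR adjusted p = 0.9997), with 190 and 316 CPM in Fosl2F/F and 288 and 177 in the libraries labelled Fosl2cKO, so the spread within each group was larger than the difference. The estimate was 0.25 without Fosl2F/F 2 and 0.19 without Fosl2cKO 2. Among the rule genes, Upk3b differed by 0.51 (SE 0.34), Muc16 by 0.59 (SE 0.31) and Krt7 by -0.53 (SE 0.39). The rule selected the members on detection of these genes, so their values are a description and no test. Epcam was at 503, 434, 1065 and 832 CPM, a log2 fold change of 0.99 (SE 0.29) that did not pass (edgeR adjusted p = 0.902). Irx3, an Iroquois homeobox factor, was at 69.7, 61.0, 172 and 333 (log2 fold change 1.91, SE 0.34, edgeR adjusted p = 0.223), and Ly6a, which encodes the stem cell antigen Sca-1, at 16.6, 16.9, 105 and 44.8 (log2 fold change 2.16, SE 0.41, edgeR adjusted p = 0.242). Neither passed. Their values did not overlap between conditions, which also held for 14.2% of all genes tested in the same direction. Lpcat2, a lysophospholipid acyltransferase gene and the fifth gene by p, was at 36.0, 20.6, 4.18 and 4.86 (log2 fold change -2.65, SE 0.42, edgeR adjusted p = 0.129).

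Whether the condition acted differently on the surface epithelium than on stromal cells was tested as an interaction on the within-library differences of log2 levels. Of 12141 genes, 0 passed at a limma adjusted p under 0.1, and 483 (3.98%) had an unadjusted p under 0.05. For Scand1 the difference between the effects was 0.15 (SE 0.18) and for Cebpd -0.07 (SE 0.37), for Irx3 1.07 (SE 0.63) and for Lpcat2 -1.62 (SE 0.67), all with limma adjusted p of 0.945 or more. Within stromal cells the same edgeR test called 8 of 17017 genes (0.047%) and within granulosa cells 2 of 15154 (0.0132%).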

How the data were processed

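Ovaries were dissociated and sequenced with 10x Genomics 3′ chemistry in 4 libraries. The authors used CellRanger and the GRCm38 genome, and the deposited values are whole-number UMI counts per barcode for 32285 genes, without normalization. The matrix headers name cellranger 7.1.0, the methods name another version, and whether the CellBender correction described there is in these counts is not given in the sources used here. 0 columns were left out.

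Cells with at least 500 genes, over 1000 UMIs and under 10% mitochondrial UMIs were kept. The members, the gene lists and the lists of markers were chosen with earlier results of these data known. Stromal (11332), granulosa (7642) and macrophage (1456) cells for comparison were taken by fixed markers and never met the member rule. Scrublet in scanpy 1.11.5 scored doublets per library, and the top 0.8% of cells per 1000 cells were marked and kept. Members were clustered by the Leiden method on 1500 genes scaled within each library. UMIs were summed per library and tested with edgeR 4.0.16 (filterByExpr, TMM, quasi-likelihood test, Benjamini-Hochberg adjustment), with DESeq2 1.42.0 as an alternative, and the interaction with limma 3.58.1 on log2 CPM (prior count 2). The test was tried on simulated data. GENCODE M21 gave positions for 32235 of the 32285 genes. Named genes are the rule genes, examples of the lists, the 20 genes of highest ratio over all other cells in the library where that ratio was lowest (with at least 50 CPM in the members of every library, 5 added), the genes that passed the test plus the 5 of lowest p, and the 15 most variable. Cluster-leading genes, exceptions within marker lists and the list genes Epcam, Irx3 and Ly6a in the comparison of conditions were chosen with their values in view, as were the alternatives without members with stromal markers, without doublet-rich clusters (at least 40% marked), and without the trend with gene length. Precision is limited by the spread between 2 libraries per group and, for low genes, by the member UMIs per library (1751364 to 5101269).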

Additional observations from a re-analysis of the deposited data

How the results depend on the processing

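The share of surface epithelial cells was higher in the libraries labelled Fosl2cKO under all 13 alternatives. The log2 ratios were 0.02 to 0.83 when 1 library was left out and 0.43 to 0.73 otherwise, where 0.33 is the smallest p the design allows. None of these alternatives left granulosa cells out of the total. They numbered 3196 of 8780 cells in Fosl2F/F 1, 2804 of 24320 in Fosl2F/F 2, 750 of 7175 in Fosl2cKO 1 and 892 of 7507 in Fosl2cKO 2. The share without them was not tested. The cycling share turned to -0.064 in cells that were not thinned and ranged from -0.84 (without Fosl2cKO 1) to 1.34 when 1 library was left out. It rose to 1.82 with the rule applied to thinned cells and to 1.33 with at least 3 cycling genes required. The count of genes called between conditions, 4, became 0 with marked doublets removed, 11 with at least 4 rule genes, 1 with no foreign marker allowed, 8 without members with stromal markers, 1 without clusters with many marked doublets, 154 with no filter on low counts, 1 at an adjusted p under 0.05 (Plb1), 23 with DESeq2, 0 with the length trend removed, and 0 to 75 when 1 library was left out. With the replicate number as a block it became 41, and the interaction stayed at 0. Deviations of same-numbered libraries correlated at -0.05 over 7300 genes, and no source used here says that the numbers pair the libraries, so the block is an alternative only. The interaction count of 0 became 1 without members with stromal markers and ranged from 0 to 3 when 1 library was left out. Fosl2 turned to 0.25 without Fosl2F/F 2 and 0.19 without Fosl2cKO 2, within a range of -0.58 to 0.25. Scand1, Tmem160, Cebpd and Plb1 kept their direction under all 17 alternatives, with 6, 7, 7 and 6 of them no longer past the threshold. Lpcat2 passed under 8 of its 17 alternatives. Fits with a lone library in a group assume that it varies like the other group. The cause of these shifts was not tested. Settings without doublet-rich clusters, without members with stromal markers and without the length trend were chosen after seeing the data. Depth limits the low genes, since 1 UMI in Fosl2F/F 1 is worth 0.571 CPM.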

Other observations

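A pair of genes best known from other ovarian cells stood in the members above the mean of all other cells, Kdr of endothelium at 83.4 to 140 CPM and Ooep of oocytes at 81.9 to 188. Kdr was at 141 in clusters 1 to 3 and 50.2 in cluster 6, and in the clusters rich in marked doublets it was at 16.7 (cluster 4), 90.3 (5), 51.4 (7) and 192 (8). Ooep was highest in cluster 6, at 288, and at 144 in clusters 1 to 3, against 50.1, 85.3, 63.0 and 16.3 in clusters 4, 5, 7 and 8. These genes were singled out after their values had been seen, and the comparison with other cells has no test.

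Lcn2, a secreted iron-binding defence protein, was uneven between libraries. It was at 59.4, 2.16, 148 and 0.486 CPM in the members, with 104, 11, 640 and 1 UMIs. In Fosl2cKO 1, 503 of the 640 UMIs came from 5 cells of cluster 6, and in Fosl2F/F 1 all but 3 came from other clusters. Few cells carried the level in Fosl2F/F 1 too, with 83 of its 104 UMIs in 5 members. The level was thus higher in replicate 1 than in replicate 2 of each condition, in samples that the methods describe as handled side by side by 1 person.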
